A study of Mus musculus with 66 samples.

Results

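Gene expression in the mouse hippocampus was compared between 5 and 3 months after injection of control brain extract, in the younger of 2 age cohorts. The comparison used 10 of the 66 libraries of the series, 5 from mice at 5 months post injection (mpi) and 5 from mice at 3 mpi, taken by their column labels. All 10 libraries came from C57BL/6 mice labelled 3 months old. The labels do not say whether that age is at injection or at collection, and name no genetic change. The mice had received control extract, the counterpart of an Alzheimer's disease (AD) brain extract given to the other arm, and no uninjected mice were analysed here. The series as a whole concerns tau pathology seeded by injected extract at different ages and times. Hippocampal poly(A) RNA was sequenced, 1 library per label. The question addressed by this step is how the control-injected hippocampus differs between the 2 later times, before any effect of AD extract is considered.

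Levels are the deposited values, reads-per-million after the scaling that the submitters applied to each library, written here as scaled RPM. The libraries held 44176134 to 50748163 reads at 5 mpi and 44934335 to 51874742 reads at 3 mpi. Hippocampal neuron genes were present throughout: Wfs1, a marker of CA1 pyramidal cells, had 114.8, 86.9, 120.4, 113.1 and 122.3 scaled RPM in libraries 1 to 5 of 5 mpi and 104.2, 117.9, 119.7, 80.3 and 99.5 in those of 3 mpi. Library 4 of 5 mpi stood apart. Prkcd, which marks thalamic neurons, had 120.6 scaled RPM there, against 17.9 to 27.5 in the other 5 mpi libraries and 23 to 47.9 at 3 mpi. By Xist and Y-linked genes, 2 libraries at 5 mpi and 1 at 3 mpi had a female pattern, and the other 3 and 4 a male pattern. Values without library 4 of 5 mpi, or among libraries with the male pattern alone, are also given for some lists.

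The hippocampus borders the lateral ventricle. Ependymal cells line the ventricle and carry bundles of motile cilia that move cerebrospinal fluid. The transcription factor Foxj1, together with RFX factors, drives the genes of motile cilia. The choroid plexus, a folded epithelium within the ventricle, secretes the fluid and the thyroid hormone carrier transthyretin. Both tissues lie beside the hippocampus.

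Across 19976 genes tested, 1 passed an adjusted p of 0.05, which is 0.00501% of them. It fell. This was Gm32468, annotated by GENCODE as a long intergenic noncoding RNA at chr10:93084206-93093727 on the plus strand of GRCm38, whose function is not annotated. As a gene model it lay outside the rule for named genes, and it is named here because of its values. Libraries 1 to 5 of 5 mpi had 0.562, 0.613, 0.806, 0.167 and 0.339 scaled RPM, and those of 3 mpi 2.18, 1.35, 1.68, 2.08 and 1.98. All 5 libraries at 5 mpi lay below all 5 at 3 mpi. These levels rest on 8 to 41 reads per library at 5 mpi and 70 to 99 at 3 mpi. The means were 0.497 ± 0.249 at 5 mpi and 1.85 ± 0.340 at 3 mpi (SD, n = 5 each). The log2 fold change on the log2(value + 1) scale was -0.94 (SE 0.11, adjusted p = 0.000101), and that scale understates the change of so low a gene.

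The sequence around the start of Gm32468 is shown because it is the only gene called. It is RefSeq's window on GRCm38.p6, chr10:93083986-93084285 on the plus strand, 250 bases before RefSeq's start in lower case and 50 bases after it in capitals. RefSeq's start lies inside the gene as GENCODE annotates it, so the last lower-case bases belong to the GENCODE gene.
Gm32468: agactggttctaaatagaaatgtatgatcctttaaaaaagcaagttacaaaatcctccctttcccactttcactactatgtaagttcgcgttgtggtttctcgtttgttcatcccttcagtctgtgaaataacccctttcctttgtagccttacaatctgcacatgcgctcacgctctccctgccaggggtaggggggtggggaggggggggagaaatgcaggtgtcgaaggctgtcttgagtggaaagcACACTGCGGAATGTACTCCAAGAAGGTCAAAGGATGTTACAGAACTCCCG

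Gm32468 lies head to head with Cfap54, whose product belongs to the central apparatus of motile cilia. The annotated ends of the genes are 2588 bases apart and the genes are on opposite strands. Cfap54 had 7.89, 10.3, 10.3, 5.94 and 8.05 scaled RPM at 5 mpi and 16.1, 13.2, 11.6, 13.3 and 13.2 at 3 mpi. The groups did not overlap, but Cfap54 did not pass (log2 fold change -0.62, SE 0.15, adjusted p = 0.106). On the other side, Cdk17, a cyclin-dependent kinase 67148 bases away, averaged 223.0 ± 15.1 at 5 mpi and 227.6 ± 10.6 at 3 mpi (SD, n = 5 each; log2 fold change -0.03, adjusted p = 0.969).

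The levels of Gm32468 set the 3 mpi libraries apart from those before and after. After control extract the means were 0.400 ± 0.126 at 1 mpi, 1.85 ± 0.340 at 3 mpi and 0.497 ± 0.249 at 5 mpi (SD, n = 5 each). After AD extract, in other libraries, they were 0.308 ± 0.141 at 1 mpi (SD, n = 6), 2.03 ± 0.313 at 3 mpi (SD, n = 5) and 0.165 ± 0.196 at 5 mpi (SD, n = 3). For Cfap54 the control means were 11.2 ± 2.22 at 1 mpi, 13.5 ± 1.64 at 3 mpi and 8.51 ± 1.86 at 5 mpi (SD, n = 5 each). The step of Gm32468 after AD extract also passed, with a log2 fold change of -1.38 (adjusted p = 5.91e-07), and the difference between the steps did not (0.45, adjusted p = 0.903). In the 12-month cohort, a table normalized and fitted separately, Gm32468 averaged 0.188 ± 0.164 at 5 mpi (SD, n = 7) and 0.509 ± 0.617 at 3 mpi (SD, n = 6). That step did not pass (log2 fold change -0.28, adjusted p = 0.767). The labels give no collection date or batch, so time after injection cannot be told apart from these. If 3 months is the age at injection, time cannot be told apart from age either.

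**Figure D1:**
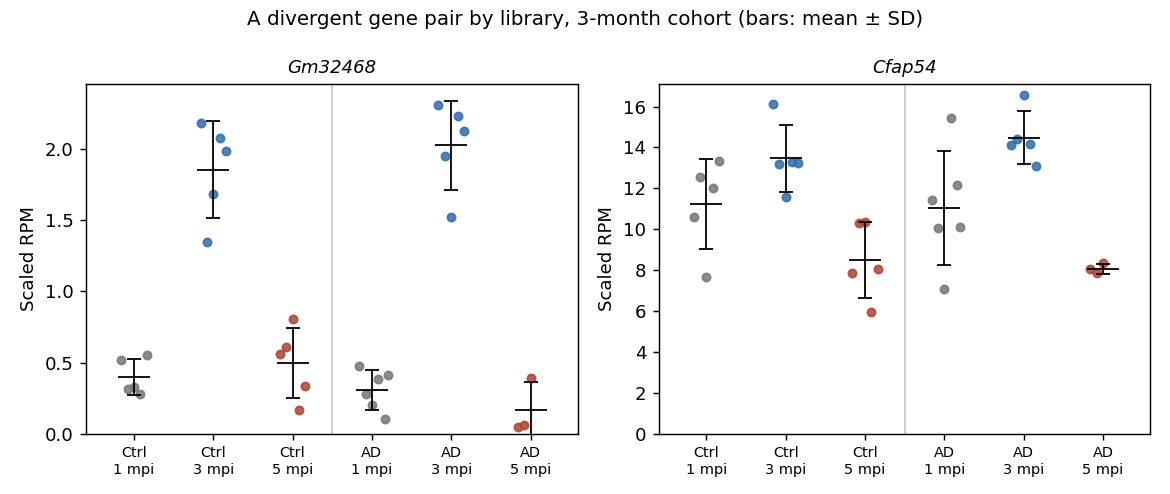
Scaled RPM (vertical axis) of Gm32468 and Cfap54 in each library of the 3-month cohort, by extract and months post injection; points are libraries, bars mean and SD. All Gm32468 points at 3 mpi are 1.35 or above, and the highest of the control libraries at 5 mpi is 0.806.

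The 20 genes with the smallest p-values after Gm32468, leaving out gene models and pseudogenes, had adjusted p-values of 0.0698 to 0.0931 and did not pass. Their values are given as a description. Of these, 14 had negative and 6 positive fold changes, and in 17 the groups did not overlap. Over all genes tested, 1.85% did not overlap with 5 mpi lower and 0.971% with 5 mpi higher. Unadjusted p-values under 0.05 numbered 1800, or 9.01% of genes, with 5.76% lower and 3.25% higher.

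Of the 14 lower genes, 7 have known roles in cilia or flagella. Enkur encodes a protein of the inner wall of ciliary microtubules and had 3.01, 3.57, 3.42, 2.48 and 2.50 scaled RPM in libraries 1 to 5 of 5 mpi, and 5.20, 5.72, 4.76, 5.52 and 4.98 at 3 mpi. The highest 5 mpi library lay below the lowest 3 mpi library. The log2 fold change was -0.65 (SE 0.12, adjusted p = 0.0698). Cfap43, needed for normal beating of cilia and sperm flagella, had 3.19, 5.51, 5.54, 2.50 and 3.47 at 5 mpi and 8.16, 7.57, 7.29, 8.72 and 8.25 at 3 mpi. Its log2 fold change of -0.88 (SE 0.17, adjusted p = 0.0701) came again without overlap of the groups. Spag17, of the central pair of the ciliary axoneme, averaged 1.11 ± 0.277 at 5 mpi and 2.30 ± 0.545 at 3 mpi, and Catip, which takes part in cilium assembly, 2.67 ± 1.02 at 5 mpi and 4.82 ± 0.428 at 3 mpi (SD, n = 5 each). Tmem237, a membrane protein of the ciliary transition zone, averaged 28.5 ± 6.59 at 5 mpi and 41.8 ± 4.52 at 3 mpi, with library 2 of 5 mpi, at 37.1, above library 2 of 3 mpi, at 35.0.

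The kinase Mapk15, linked to cilium formation, averaged 1.27 ± 0.333 at 5 mpi and 2.65 ± 0.414 at 3 mpi (SD, n = 5 each). Eno4, an enolase-like protein of the sperm tail, averaged 3.08 ± 0.723 at 5 mpi and 5.06 ± 0.0610 at 3 mpi, its 3 mpi libraries lying within 4.98 to 5.15. Ttll4, an enzyme that adds glutamate to tubulin, averaged 20.9 ± 1.43 at 5 mpi and 25.1 ± 1.89 at 3 mpi, with overlap. The checkpoint kinase Nek11 averaged 2.45 ± 0.675 at 5 mpi and 3.98 ± 0.567 at 3 mpi, with library 2 of 5 mpi, at 3.43, above library 2 of 3 mpi, at 3.35. The phosphatase subunit Ppp1r36 averaged 1.95 ± 0.489 at 5 mpi and 3.64 ± 0.274 at 3 mpi.

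The other 4 lower genes are known from epithelia or from immature and dividing cells. Which cells their reads came from here was not tested. Slc12a2 encodes NKCC1, the sodium, potassium and chloride cotransporter abundant in choroid plexus epithelium. It had 114.9, 129.5, 119.6, 93.7 and 79.4 scaled RPM at 5 mpi and 171.4, 134.9, 165.5, 193.8 and 165.7 at 3 mpi, without overlap (log2 fold change -0.64, SE 0.14, adjusted p = 0.0783). Cgn encodes cingulin, on the inner face of epithelial tight junctions, and averaged 5.01 ± 0.807 at 5 mpi and 7.90 ± 1.10 at 3 mpi (SD, n = 5 each). Igfbpl1, a marker of immature granule neurons, had 0.764, 0.613, 0.806, 0.896 and 0.360 at 5 mpi and 2.40, 4.08, 3.27, 1.29 and 2.28 at 3 mpi (log2 fold change -1.08, SE 0.22, adjusted p = 0.0701). Its control mean was 4.65 at 1 mpi, 2.67 at 3 mpi and 0.688 at 5 mpi. Uhrf1, which maintains DNA methylation when cells divide, averaged 0.780 ± 0.191 at 5 mpi and 1.35 ± 0.0577 at 3 mpi.

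The 6 higher genes had no overlap between the groups. Cldn5, the tight-junction claudin of brain endothelium and a part of the blood-brain barrier, had 29.5, 26.9, 32.3, 27.0 and 30.8 scaled RPM at 5 mpi and 19.7, 17.2, 17.8, 13.01 and 20.4 at 3 mpi. The log2 fold change was 0.71 (SE 0.14, adjusted p = 0.0698). Its 1 mpi mean was 28.5 ± 2.39 (SD, n = 5), near the level at 5 mpi. Arntl encodes BMAL1, the activator of the circadian clock, and had 34.5, 35.7, 35.0, 34.1 and 38.2 at 5 mpi and 28.1, 27.8, 24.1, 29.7 and 29.3 at 3 mpi (log2 fold change 0.34, SE 0.07, adjusted p = 0.0701), with a mean of 36.8 ± 4.39 at 1 mpi. The secreted Wnt inhibitor Wif1 averaged 1.74 ± 0.399 at 5 mpi and 0.785 ± 0.161 at 3 mpi, and the nuclear receptor Nr2f1 54.6 ± 3.03 at 5 mpi and 45.6 ± 2.63 at 3 mpi (SD, n = 5 each). The mitochondrially encoded ATP synthase subunit mt-Atp8 had 9.32, 12.3, 11.7, 8.83 and 7.63 at 5 mpi and 4.87, 6.35, 4.36, 6.54 and 6.50 at 3 mpi. Its transcript overlaps that of mt-Atp6, so its reads cannot be assigned with certainty. Rps29, a small ribosomal subunit protein with processed copies in the genome, averaged 55.6 ± 2.80 at 5 mpi and 43.1 ± 4.31 at 3 mpi.

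**Figure D2:**
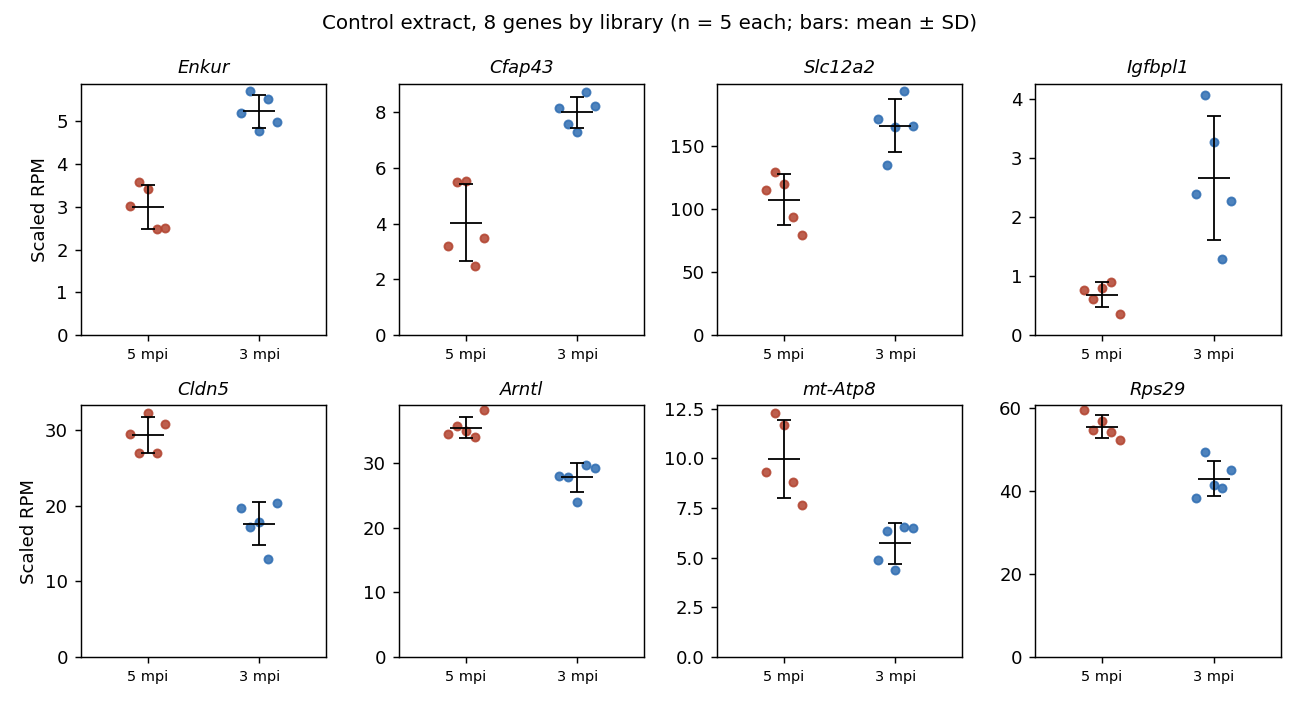
Scaled RPM (vertical axes, from 0) of 8 of the 20 genes in each control library at 5 mpi and 3 mpi; points are libraries, bars mean and SD, n = 5 each. In each panel the groups are separate, with Enkur, Cfap43, Slc12a2 and Igfbpl1 lower and Cldn5, Arntl, mt-Atp8 and Rps29 higher at 5 mpi, none past the adjusted threshold.

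The number of genes called depended on the test. The edgeR quasi-likelihood test on recovered reads called 8 genes, 2 higher and 6 lower, of which 5 are among the 20, and DESeq2 called 99, 15 higher and 84 lower, which included all 20. A fit of the 10 libraries alone called 51. Without library 2 of 5 mpi the count was 26, without library 3 of 5 mpi 6, without library 2 of 3 mpi 5 and without library 3 of 3 mpi 4. Gm32468 was called in each of these.

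Motile cilia genes were then examined as a group. The ependymal cilia list had 12 members, of which 11 passed the low-value filter, all with negative fold changes. In 10 the unadjusted p was under 0.05 and the groups did not overlap, and the median log2 fold change was -0.69, against -0.000174 over all genes. None passed adjustment. Foxj1 had 7.57, 12.4, 12.99, 8.77 and 7.82 scaled RPM at 5 mpi and 16.9, 17.1, 15.6, 15.5 and 15.7 at 3 mpi (log2 fold change -0.68, SE 0.19, adjusted p = 0.155). Ccdc153, a coiled-coil protein used as an ependymal marker, had 5.82, 5.41, 7.41, 4.64 and 4.41 at 5 mpi and 10.2, 12.9, 9.55, 11.1 and 9.07 at 3 mpi (-0.83, SE 0.19, adjusted p = 0.0931). The adenylate kinase Ak7 of motile cilia averaged 5.05 ± 1.16 at 5 mpi and 9.82 ± 1.22 at 3 mpi, and the tektin Tekt1, a filament of ciliary microtubules, 3.85 ± 1.23 at 5 mpi and 6.40 ± 0.655 at 3 mpi (SD, n = 5 each). The exception was Fam183b, at 3.75 ± 0.455 at 5 mpi and 4.18 ± 0.397 at 3 mpi (-0.13, adjusted p = 0.868).

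The list's mean log2(value + 1) was 2.26, 2.56, 2.70, 2.14 and 2.17 in libraries 1 to 5 of 5 mpi and 2.96, 3.06, 2.99, 3.03 and 3.03 in those of 3 mpi. The groups did not overlap, and the 5 mpi libraries spread more widely (SD 0.250 at 5 mpi and 0.0393 at 3 mpi). Gene families taken by name after the values were seen gave the same direction. All 32 Cfap genes tested were below 0, with a median of -0.35 and 9 without overlap. So were 14 of 16 Dnah genes, the heavy chains of axonemal dynein, with a median of -0.29 and 5 without overlap. The share of all genes that were lower without overlap was 1.85%. Of the dynein genes, Dnah6 averaged 6.50 ± 2.59 at 5 mpi and 12.97 ± 1.83 at 3 mpi, and Dnah12 averaged 2.07 ± 0.242 at 5 mpi and 4.47 ± 0.798 at 3 mpi (SD, n = 5 each). In bulk tissue, fewer cells of a type, less bordering tissue in the sample and less RNA per cell cannot be told apart.

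Because these genes shared a direction, their promoters were searched on both strands for GTTGCC, the core letters of the X-box bound by RFX factors, a motif chosen with the values known. Of the 12 list members, tested or not, 9 had a window in RefSeq's table of GRCm38.p6, and 5 of the 9 held it, namely Ccdc153, Dynlrb2, Tekt1, Pifo and Fam183b. Of the 20 genes, 4 of the 11 lower ones with a window held it, namely Enkur, Catip, Eno4 and Tmem237, and 0 of the 4 higher ones. Of all 27025 genes with a window, 14.1% did. A match is a description of these letters, and Fam183b, with the smallest difference of the members tested, held it too. The windows of Enkur, chr2:21205316-21205615 on the minus strand, and Catip, chr1:74361885-74362184 on the plus strand, are shown as examples from the 20 genes. Each runs from 250 bases before the start to 50 after it, with the motif in capitals.
Enkur: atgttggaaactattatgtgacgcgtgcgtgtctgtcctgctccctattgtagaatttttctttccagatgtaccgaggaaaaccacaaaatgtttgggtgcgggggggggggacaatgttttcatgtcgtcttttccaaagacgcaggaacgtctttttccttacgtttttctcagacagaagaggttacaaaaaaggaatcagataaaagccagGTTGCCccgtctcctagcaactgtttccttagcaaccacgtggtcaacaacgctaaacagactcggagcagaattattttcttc
Catip: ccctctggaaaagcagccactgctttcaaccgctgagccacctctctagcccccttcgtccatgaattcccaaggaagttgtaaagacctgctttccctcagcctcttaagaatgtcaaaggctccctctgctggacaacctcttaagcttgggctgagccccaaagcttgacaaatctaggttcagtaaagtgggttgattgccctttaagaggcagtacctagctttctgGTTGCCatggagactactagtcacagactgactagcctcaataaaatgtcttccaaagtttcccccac

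Choroid plexus genes had the most negative fold changes of any list. All 18 members were below 0 with unadjusted p under 0.05, against 5.76% of all genes, and the median log2 fold change was -1.77. None passed adjustment, and in 1, the secreted BMP and Wnt modulator Sostdc1, the groups did not overlap. Ttr, which encodes transthyretin, had 1338, 3968, 3077, 48.4 and 353.2 scaled RPM at 5 mpi and 5721, 3335, 5248, 6418 and 7100 at 3 mpi. Its log2 fold change was -2.79 with an SE of 1.00 (adjusted p = 0.298), and library 2 of 5 mpi exceeded library 2 of 3 mpi. The folate receptor Folr1, which carries folate into the fluid, had 10.4, 27.9, 21.5, 1.13 and 3.26 at 5 mpi and 44.5, 22.2, 41.1, 47.4 and 50.02 at 3 mpi (-2.13, SE 0.67, adjusted p = 0.228). Kl, the klotho protein, had 79.5, 160.8, 126.4, 26.2 and 42.1 at 5 mpi and 209.5, 106.7, 209.3, 232.4 and 252.4 at 3 mpi (-1.44, SE 0.42, adjusted p = 0.190). The members varied together from library to library, with libraries 4 and 5 of 5 mpi lowest.

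The choroid plexus list's mean log2(value + 1) was 4.08, 5.28, 4.91, 1.96 and 2.80 in libraries 1 to 5 of 5 mpi and 5.70, 4.75, 5.61, 5.82 and 5.96 in those of 3 mpi. Without library 4 of 5 mpi the median was -1.32 and 13 of 18 members had unadjusted p under 0.05. Among libraries with the male pattern alone, a choice made after seeing the data, it was -1.225 with 14 of 18. At 5 mpi, libraries 1, 4 and 5 were the lowest in both the choroid plexus and the ependymal cilia level. At 3 mpi, library 2 had the lowest choroid plexus level, 4.75, and the highest ependymal cilia level, 3.06. The part of the choroid plexus level in the cilia result was not tested. In a fit with this level as a covariate, which itself differs between the times, the ependymal list's median was -0.22 and 4 of 11 members had unadjusted p under 0.05. Without library 4 of 5 mpi, the lowest in choroid plexus genes, the ependymal median was -0.62 and the count 10 of 11. Among libraries with the male pattern alone the ependymal median was -0.55 and the count 10 of 11.

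**Figure D3:**
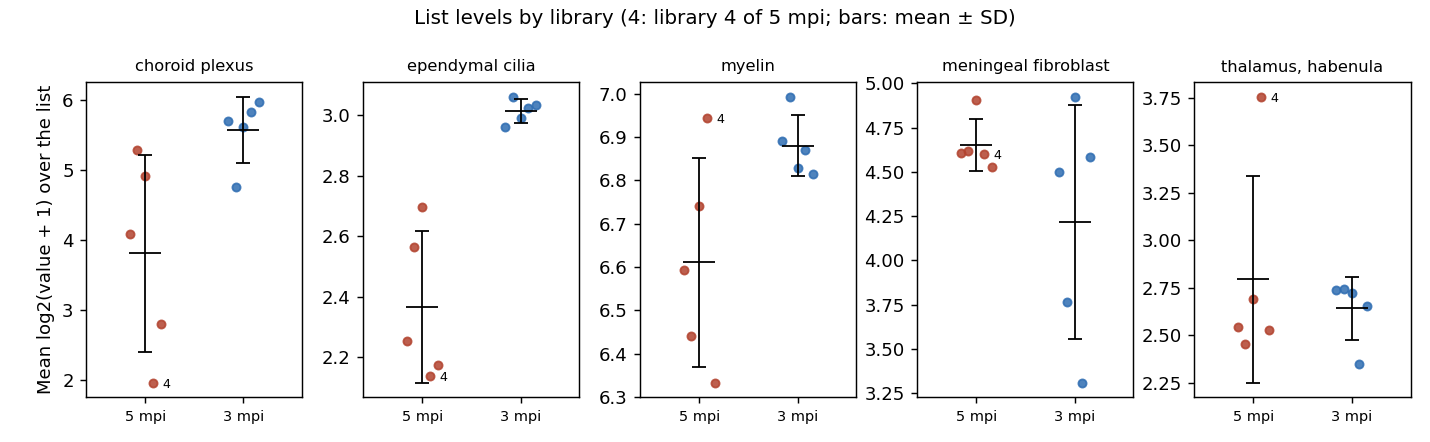
Mean log2(value + 1) over 5 gene lists (vertical axes, each with its own range not starting at 0) in the control libraries at 5 mpi and 3 mpi; points are libraries, bars mean and SD, and 4 marks library 4 of 5 mpi. Only the ependymal cilia panel has groups that do not overlap, and library 4 is lowest for choroid plexus and highest for thalamus and habenula.

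Of 20 myelin genes, none passed adjustment in the fit of all libraries. Among them 19 were below 0, 13 had unadjusted p under 0.05 and 4 did not overlap, with a median log2 fold change of -0.29. Over all genes, 5.76% were lower with unadjusted p under 0.05 and 1.85% lower without overlap. Ermn, a cytoskeletal protein of myelinating oligodendrocytes, had 80.5, 64.3, 81.9, 89.8 and 56.7 scaled RPM at 5 mpi and 102.2, 110.0, 92.7, 105.7 and 91.8 at 3 mpi (-0.44, SE 0.11, adjusted p = 0.125). The Ermn mean at 1 mpi was 109.5. The count of 13 was 8 without library 2 of 5 mpi and 8 without library 5 of 5 mpi. With choroid plexus level as a covariate it was 4, with a median of -0.21. Among libraries with the male pattern alone, a choice made after seeing the data, it was 16, with a median of -0.41. In that fit Ermn (-0.60) and the list member Tspan2 (-0.49) passed, each with an adjusted p of 0.0195.

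Genes of dividing and newly made cells were examined next. Of 20 cell cycle genes, 16 were below 0, with a median of -0.12. Lower with unadjusted p under 0.05 were 6 of them, against 5.76% of all genes. None passed adjustment. The count of 6 was 2 without library 3 of 5 mpi, 3 without library 3 of 3 mpi and 2 among libraries with the male pattern, and the median was -0.33 with edgeR and -0.34 with DESeq2. The mitotic motor Kif11 averaged 1.44 ± 0.167 at 5 mpi and 2.17 ± 0.245 at 3 mpi, and the ribonucleotide reductase subunit Rrm2 1.07 ± 0.265 at 5 mpi and 1.43 ± 0.142 at 3 mpi (SD, n = 5 each). The newborn granule neuron list of 16 had a median of -0.03 and 2 members with unadjusted p under 0.05. These were Igfbpl1 and Eomes, a factor of intermediate progenitors, which had 0.180, 0.245, 1.36, 0.292 and 0.233 at 5 mpi and 1.52, 3.95, 3.10, 0.806 and 1.65 at 3 mpi (-1.09, SE 0.35, adjusted p = 0.242). Eomes overlapped through library 3 of 5 mpi.

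Vascular and meningeal genes leaned the other way, with none past adjustment. Of 23 meningeal fibroblast and matrix genes, 19 were above 0, with a median of 0.43 and 4 with unadjusted p under 0.05, against 3.25% of all genes. Aldh1a2, which makes retinoic acid in the meninges, had 32.9, 25.6, 34.5, 29.4 and 26.9 scaled RPM at 5 mpi and 15.9, 6.30, 25.6, 2.46 and 16.5 at 3 mpi (1.42, SE 0.50, adjusted p = 0.295). The 5 mpi libraries were alike and the 3 mpi libraries scattered. Slc6a13, a GABA and taurine transporter of the meninges, had 20.9 to 25.2 at 5 mpi and 1.99 to 20.4 at 3 mpi, with libraries 2 and 4 lowest. With choroid plexus level as a covariate the count of 4 was 9. Without library 4 of 3 mpi the list's median was 0.19, with 1 member higher and 1 lower under 0.05. Without library 2 of 3 mpi it was 0.31, with 2 higher and 1 lower. Among libraries with the male pattern alone, a choice made after seeing the data, it was 0.60 with 10 higher.

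Of 18 endothelial genes, 13 were above 0 and 5 below, with a median of 0.18. Unadjusted p under 0.05 was found for 6 higher and 1 lower member, and 1 higher and 1 lower member had groups without overlap. The shares of all genes were 3.25% higher and 5.76% lower under that p, and 0.971% higher and 1.85% lower without overlap. Besides Cldn5, the receptor Tek averaged 22.4 ± 1.91 at 5 mpi and 18.2 ± 2.38 at 3 mpi, and the junction cadherin Cdh5 21.4 ± 1.71 at 5 mpi and 15.7 ± 4.09 at 3 mpi (SD, n = 5 each). Of 16 mural cell genes, 14 were above 0, with a median of 0.25. The pericyte receptor Pdgfrb averaged 31.6 ± 2.83 at 5 mpi and 24.9 ± 3.15 at 3 mpi (0.33, adjusted p = 0.417). Without library 1 of 5 mpi, 3 endothelial members were higher and 1 lower with unadjusted p under 0.05. Without library 4 of 3 mpi, the library lowest in meningeal genes, 2 endothelial members and 1 mural member had unadjusted p under 0.05.

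Of 79 ribosomal protein genes, none passed adjustment. Among them 67 were above 0 and 21 had unadjusted p under 0.05, with a median of 0.06 and 3 members without overlap. Over all genes, 3.25% were higher with unadjusted p under 0.05 and 0.971% higher without overlap. The count of 21 was 10 without library 4 of 5 mpi, 10 without library 4 of 3 mpi and 8 among libraries with the male pattern. Of 84 nuclear oxidative phosphorylation genes, 62 were above 0 and 22 below, with a median of 0.03 and a range of -0.57 to 0.29. Unadjusted p under 0.05 was found for 9 higher and 2 lower members. The complex I subunit Ndufb8 averaged 46.6 ± 3.13 at 5 mpi and 39.9 ± 2.02 at 3 mpi (0.22, SE 0.06, adjusted p = 0.130). Among the 13 mitochondrially encoded genes, 6 were above 0 with a median of -0.02, and mt-Nd3 and mt-Nd4l were the others under an unadjusted p of 0.05 beside mt-Atp8.

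The number of clock genes with low p-values depended on the fit. In a fit of the 10 libraries alone, 3 higher and 5 lower of the 21 clock genes had unadjusted p under 0.05. That fit also called 51 genes at the adjusted threshold, against 1 in the fit of all 29 libraries. Its share of all genes under an unadjusted p of 0.05 is not reported here. In the fit of all 29 libraries, 3.25% of all genes were higher and 5.76% lower with unadjusted p under 0.05. Under that p in the same fit were 1 higher and 1 lower of the 21 clock genes. The lower was Ciart, a repressor of the clock, with 7.84, 7.39, 7.53, 9.25 and 7.54 scaled RPM at 5 mpi and 10.7, 10.7, 11.4, 8.53 and 10.3 at 3 mpi (-0.35, SE 0.11, adjusted p = 0.247). The clock repressor Per3 averaged 31.1 ± 1.17 at 5 mpi and 39.1 ± 3.78 at 3 mpi (SD, n = 5 each; -0.32, adjusted p = 0.643). At 1 mpi the means were 3.54 for Ciart and 23.6 for Per3. The labels give no time of day of collection.

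No member of the microglial, astrocytic and neuronal lists examined passed adjustment. The median was 0.01 over 17 homeostatic microglia genes and 0.01 over 29 disease-associated microglia genes. In the disease-associated list, Spp1, osteopontin, had 27.05, 22.8, 31.7, 25.2 and 25.5 scaled RPM at 5 mpi and 17.99, 10.6, 24.1, 4.18 and 13.03 at 3 mpi (1.05, SE 0.49, adjusted p = 0.530), lowest in the library lowest in meningeal genes. The tetraspanins Cd9 and Cd63 averaged 57.3 ± 5.47 and 59.7 ± 6.99 at 5 mpi, against 71.2 ± 4.63 and 72.5 ± 5.70 at 3 mpi (SD, n = 5 each). Reactive astrocyte genes had a median of 0.08 over 33 members, interferon response genes 0.17 over 35 and synapse genes 0.05 over 28. The reactive astrocyte median was -0.03 with choroid plexus level as a covariate, and the interferon median 0.05 without library 4 of 3 mpi. Other neuronal lists had medians of 0.17 for neocortex (11 of 12 above 0), 0.14 for secreted neuropeptides and growth factors (17 of 17 above 0) and -0.12 for CA2 pyramidal cells (6 of 6 below 0). Over 27 lysosome genes the median was -0.06. Lower with unadjusted p under 0.05 were 5 of them, against 5.76% of all genes. Among the 5 was Lamp2, at 124.9 ± 10.1 at 5 mpi and 153.2 ± 17.0 at 3 mpi (-0.29, adjusted p = 0.243).

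**Figure D4:**
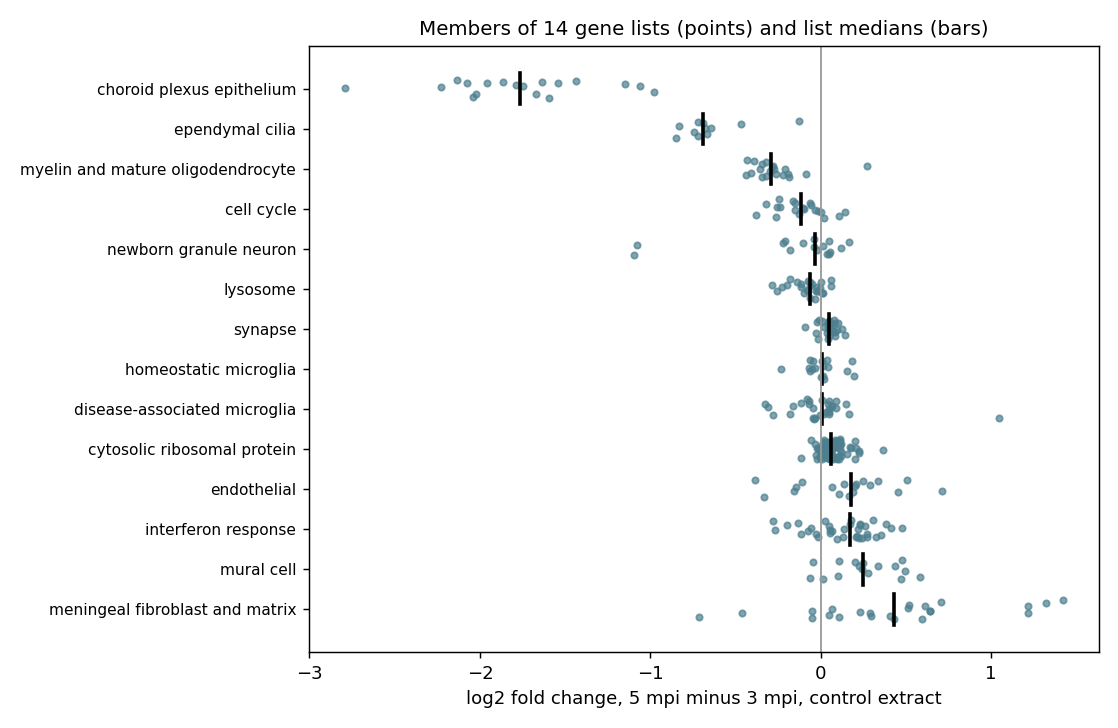
Log2 fold change at 5 mpi minus 3 mpi after control extract (horizontal axis) of each member (points) and the median (bars) of 14 gene lists, each on its own row. Choroid plexus and ependymal cilia genes lie left of 0 with medians of -1.77 and -0.69, while synaptic and microglial medians lie within 0.1 of 0.

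The same step after AD extract was measured in other libraries, 3 at 5 mpi and 5 at 3 mpi. It gave 1045 called genes, or 5.23% of those tested, with 747 lower (3.74%) and 298 higher (1.49%). All 20 genes had the same sign there and 14 were called, among them Enkur (-0.61, adjusted p = 0.00902), Cfap43 (-1.03, adjusted p = 0.00352), Slc12a2 (-1.07, adjusted p = 0.00101) and Igfbpl1 (-1.27, adjusted p = 0.00484). The 6 not called were the 6 higher genes, of which Cldn5 had 0.42 (adjusted p = 0.118) and mt-Atp8 0.06 (adjusted p = 0.884). Choroid plexus genes had a median of -3.63 with 18 of 18 called, and ependymal cilia genes -0.99 with 8 of 11 called. The choroid plexus level of the AD libraries was 1.40, 2.27 and 3.23 at 5 mpi and 5.58 to 6.11 at 3 mpi, so the groups did not overlap, and with it as a covariate 1 gene was called in the AD step. Meningeal genes had a median of -0.85 after AD extract, opposite in sign to the 0.43 after control extract. Their level in the AD libraries was 3.56, 4.73 and 3.10 at 5 mpi and 4.18 to 4.98 at 3 mpi, with overlap. The control median was 0.19 without library 4 of 3 mpi.

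No gene passed a test of the difference between the control and AD steps by limma (0%, smallest adjusted p 0.903), while 1087 genes, or 5.44%, had an unadjusted p under 0.05. The edgeR test called 0 and DESeq2 1. For mt-Atp8 the difference was 0.64 (SE 0.21, adjusted p = 0.903), for Wif1 0.43 (SE 0.20) and for Cldn5 0.29 (SE 0.21). A p that misses the threshold does not show that the steps were equal, and the 3 AD libraries at 5 mpi limit the precision.

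**Figure D5:**
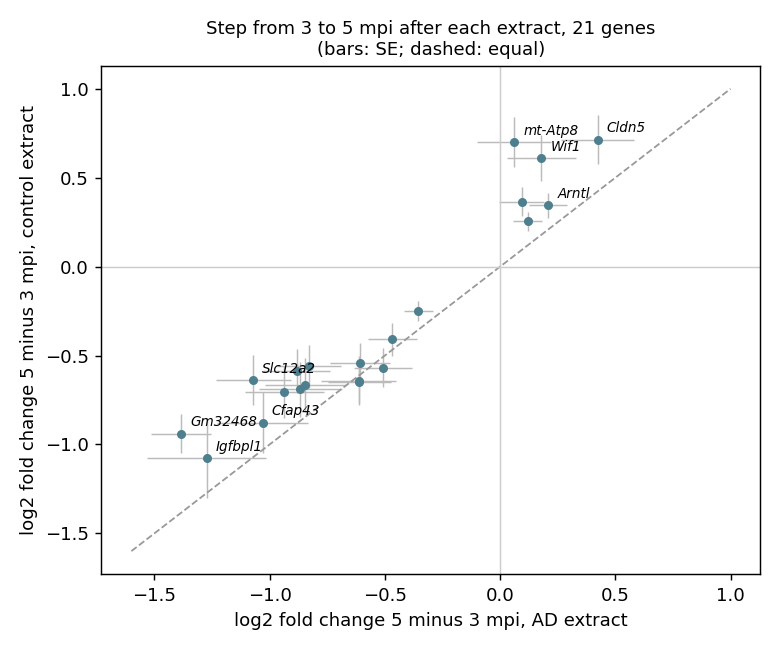
Log2 fold change at 5 mpi minus 3 mpi after control extract (vertical axis) against that after AD extract (horizontal axis) for Gm32468 and the 20 genes; bars are SE and the dashed line marks equal values. All 21 genes have the same sign after both extracts, and mt-Atp8, at 0.06, is the nearest to 0 after AD extract.

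In the 12-month cohort the control step was measured in 7 libraries at 5 mpi and 6 at 3 mpi, in a separate table, so values are only set side by side. There 14 of the 20 genes had the same sign. Enkur had a log2 fold change of -0.17, Cfap43 0.16, Cldn5 0.23, Arntl 0.19 and Igfbpl1 0.02. Igfbpl1 averaged 0.612 at 5 mpi and 0.564 at 3 mpi in that cohort, near its 5 mpi level in the younger mice. List medians were 0.13 for choroid plexus, 0.01 for ependymal cilia, 0.04 for myelin and -0.16 for meningeal genes.

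Against the earlier time, the 20 genes were mostly nearer their 3 mpi level at 1 mpi. The 1 mpi control mean lay between the 5 and 3 mpi means in 16 of 20 and nearer to that of 3 mpi in 17. The 3 genes nearer to 5 mpi were Cldn5, Arntl and Wif1. The 1 mpi and 5 mpi libraries are each compared with the same 3 mpi libraries. The 20 genes were also picked for a difference between 5 and 3 mpi, which by itself favours a 1 mpi mean lying between them. These positions are therefore a description.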

How the data were processed

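The authors' deposited tables, 1 per age cohort, hold a signal per gene: reads-per-million divided by a scaling factor per library. The submitters' processing notes name GRCm38 with STAR, Picard and edgeR; versions, the rule of counting and strand use: not given in the sources used here. Whole reads were recovered for 100% of values (tolerance 0.01 reads). The 29 libraries of the 3-month cohort were fitted together (6 group means, limma 3.58.1 in R 4.3.3, trend, log2(value + 1), filterByExpr, Benjamini-Hochberg, threshold 0.05), and SEs and p-values come from that shared spread. The 12-month table was fitted separately. Named genes, leaving out gene models and pseudogenes by symbol, were those called plus, up to 20, those with the smallest p-values at a mean log2(value + 1) of at least 1, and up to 4 members per list by p-value; some of these are not reported here. The labels do not say that libraries are separate animals, so p-values measure the spread between libraries. No pair of libraries agreed within sampling noise. Of 19976 symbols tested, 19603 matched GENCODE vM21. Alternatives used edgeR 4.0.16, DESeq2 1.42.0 and sva 3.50.0. Genes and lists were chosen with earlier results of these data known.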

Additional observations from a re-analysis of the deposited data

Results flagged for a closer look

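Among 132 groups of 5 values (21 genes and 45 list levels at each time), 9 held a library far from the other 4, where chance flags about 1 in 20 groups. At 5 mpi, the thalamus and habenula list level was 3.757 in library 4, against 2.457 to 2.692 in the others, and the meningeal fibroblast level was 4.906 in library 3, against 4.525 to 4.617. Also at 5 mpi, the cell cycle level was 1.081 in library 1 (others 1.026 to 1.037), the nuclear long noncoding RNA level 7.253 in library 2 (others 7.021 to 7.055) and the mitochondrially encoded level 8.008 in library 5 (others 8.181 to 8.239). Uhrf1 had 0.4448 scaled RPM in library 5 of 5 mpi, against 0.833 to 0.9212 in the others. At 3 mpi, the choroid plexus level was 4.751 in library 2, against 5.61 to 5.958, and the thalamus and habenula level 2.351 in library 4, against 2.657 to 2.744. Catip had 5.567 in library 5 of 3 mpi, against 4.486 to 4.762. What sets these libraries apart was not tested.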

How the results depend on the processing

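Gm32468 was called under all 26 alternatives, with log2 fold changes of -1.89 to -0.72 and adjusted p-values of 1.36e-05 to 0.048. The count of 1 gene in the control step became 8 with edgeR, 99 with DESeq2, 5 with a pseudocount of 0.1, 51 with only the 10 libraries and 3 with only male-pattern libraries; leaving out single libraries gave 1 to 26. The AD count of 1045 became 1 with choroid plexus level and 343 with ribosomal RNA carry-over as covariates, and 272 to 1001 as single libraries were left out. The count of 0 for the difference became 1 with DESeq2 and was 0 to 0 without single libraries. The cause of these shifts was not tested. With the replicate number as a block the counts were 1, 1213 and 0; correlations of same-numbered libraries ran from -0.207 to 0.0415, so the numbers do not pair them. Neither Gm32468 nor any of the 20 genes changed sign. Of the list medians, that of reactive astrocytes became -0.03 with choroid plexus level as a covariate, and those of circadian, newborn neuron and both microglia lists, within 0.05 of 0 at first, changed sign under some alternatives. With choroid plexus level as a covariate, the log2 fold change was -0.42 for Enkur and -0.46 for Cfap43. The choroid plexus list median was 0.03 in that fit, near 0 by construction because the covariate is the mean of the same genes. Low genes limit precision: Gm32468 had 8 reads in the library where it was lowest.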
